A study of Mus musculus with 14 samples.

Results

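A set of 10 TGF-beta and BMP pathway genes was followed through 4 assays of mouse muscle stem cells (MuSCs). The genes are the ligands Tgfb1, Tgfb2 and Tgfb3, the receptor Tgfbr2, the inhibitory Smads Smad6 and Smad7, the target genes Id1, Id2 and Id3, and the secreted antagonist Fst. They were matched by symbol to the Ensembl identifiers of the RNA table and to the Entrez identifiers of the RIP tables. All 10 are among the 14837 genes of the RNA table and the 9416 genes of the m6A-RIP table, 4 are among the 4527 genes with an Igf2bp3-RIP peak, and 2 are among the 3493 genes with a Lin28a-RIP peak. Control MuSCs were compared with Lin28a+ MuSCs, which carry the label Lin28a positive and, as the study states, were sorted by flow cytometry from the skeletal muscle of Lin28a-CreERT2; LSL-tdTomato mice, in which Cre driven from Lin28a switches on the tdTomato reporter. Both groups were untreated, were grown on Matrigel in DMEM with serum, and are described by no further allele, age or sex in the sources used here. Each group had 2 input libraries (the RNA), 2 m6A-RIP and 2 Igf2bp3-RIP libraries, and Lin28a+ MuSCs also had 2 Lin28a-RIP libraries, 14 libraries in all.

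TGF-beta ligands assemble a receptor complex in which Tgfbr2 activates a partner kinase, which in turn phosphorylates Smad proteins that enter the nucleus with Smad4. BMP ligands use a parallel set of receptors and Smads and are strong inducers of the Id genes, whose products bind E proteins and keep MyoD from pairing with them. Smad6 and Smad7 are induced by the same signals and block them, and follistatin (Fst) traps activins and myostatin outside the cell. In muscle, TGF-beta, activins and myostatin are known for restraining differentiation or growth.

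All 12 listed myogenic markers were in the RNA table, with a summed level of 14896 to 16157 CPM per library (counts scaled to a common library size). Endothelial markers (3 of 8 in the table) summed to less than 1 CPM and macrophage markers (6 of 8, with Ptprc at 0 in all 4 libraries) to 3.56 to 5.74 CPM. Fibro-adipogenic markers (4 of 8, without Dcn, Lum, Col15a1 and Dpt) summed to 4.42 and 5.34 CPM in the control libraries against 13.98 and 13.1 CPM in the Lin28a+ libraries, most of it Ly6a. Pericyte or smooth muscle markers (6 of 8, including Des and Acta2, which muscle cells also express) summed to 7146 and 7313 CPM in the control libraries against 8838 and 8832 CPM in the Lin28a+ libraries, with Myh11 at or near 0. Most of that sum and of its rise was Acta2 (5341 and 5427 CPM against 7450 and 7444 CPM), and Pdgfrb and Notch3 rose as well, whereas Des fell (1653 and 1738 CPM against 1189 and 1187 CPM), as did Rgs5 from 2.39 and 2.10 CPM to 0.197 and 0.205 CPM. The part of either list in the results below was not tested. Library totals were 4842915 to 6220960 estimated counts for RNA, 21350962 to 31830638 counts for m6A-RIP and 33908110 to 36610494 for Lin28a-RIP. The Igf2bp3-RIP totals of control and Lin28a+ MuSCs were 9215355 and 12617254 for replicate 1 and 27592959 and 34142094 for replicate 2. Over 557 genes with whole values, the input replicates had a chi-square of 1.92 per degree of freedom for control and 1.70 for Lin28a+ MuSCs, more than sampling noise. The methods speak of biological replicates for experiments in general, but the sources used here do not say whether the 2 libraries of a group came from separate cultures or animals, so p-values measure only the spread between these libraries, which may be technical. In such bulk samples, fewer cells of a type and less RNA per cell cannot be told apart.

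Sequences of promoters were taken from a set of RefSeq promoters (GRCm38.p6), and those of 6 of the 10 genes were used. Those of Smad6, Id2 and Id3 are shown because Smad6 and Id2 had less RNA and Id3 more in Lin28a+ MuSCs, and each stretch is the 250 bases before the start site used in that set, read 5′ to 3′ on the gene's strand. For Smad6 this site lies just inside the end of the gene's annotated span. Capitals mark GGCGCC, a sequence known from BMP-responsive elements, and CAGAC or its reverse complement GTCTG, the core of a Smad binding element; the last base of the former can be the first of CAGAC.
Smad6 promoter, chr9:64022060-64022309, minus strand: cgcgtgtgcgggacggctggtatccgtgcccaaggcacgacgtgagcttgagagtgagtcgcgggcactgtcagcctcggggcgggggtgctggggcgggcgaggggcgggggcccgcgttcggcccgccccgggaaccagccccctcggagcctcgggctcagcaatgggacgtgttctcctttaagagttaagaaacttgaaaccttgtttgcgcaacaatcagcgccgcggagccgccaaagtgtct
Id2 promoter, chr12:25096093-25096342, minus strand: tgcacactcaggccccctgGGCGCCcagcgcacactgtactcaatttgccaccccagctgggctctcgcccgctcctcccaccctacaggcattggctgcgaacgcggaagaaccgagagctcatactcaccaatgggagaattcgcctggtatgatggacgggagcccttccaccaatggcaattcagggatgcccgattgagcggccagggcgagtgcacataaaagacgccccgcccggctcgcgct
Id3 promoter, chr4:136143572-136143821, plus strand: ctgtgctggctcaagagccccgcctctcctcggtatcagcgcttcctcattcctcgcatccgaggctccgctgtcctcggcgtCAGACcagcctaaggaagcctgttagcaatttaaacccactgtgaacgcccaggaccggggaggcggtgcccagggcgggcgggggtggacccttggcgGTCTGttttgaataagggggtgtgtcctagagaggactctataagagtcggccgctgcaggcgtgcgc
GGCGCC stood once in the Id2 promoter, starting 231 bases before the start site, and in none of the other 5 promoters (Tgfb1, Tgfb2, Tgfbr2, Smad6, Id3). CAGAC, on either strand, stood 2 times in Id3, 2 times in Tgfb2, once in Tgfbr2 and in none of the others. Over 32851 RefSeq promoters of this length, 9.59% held GGCGCC and 42.2% held CAGAC on either strand. The Id2 and Id3 stretches had the same GC content, 62.8%, and Smad6 had 66.8%, against a median of 52.4% over all promoters. These matches describe letters in these windows and no binding was measured there.

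The Lin28a+ columns of the input table are headed with the names of m6A-RIP libraries. They were read as Lin28a+ input because the labels of those input libraries point to this table, and every RNA value and every value relative to RNA rests on that reading. RNA was measured as estimated counts per gene and is given as CPM scaled with TMM factors, and the groups were tested against each other over 11317 genes by the quasi-likelihood method of edgeR, with a call at a Benjamini-Hochberg adjusted p under 0.05. Of the 10 genes, 7 fell (Smad7, Smad6, Tgfbr2, Tgfb3, Id1, Tgfb1 and Id2), 1 rose (Id3), and Tgfb2 and Fst did not pass the test. Over all genes tested, 56.9% were called, 28.1% higher and 28.7% lower in Lin28a+ MuSCs. The median log2 fold change of the 10 genes was -0.37, against 0.01 over all genes. In 9 of the 10 genes the libraries of the groups did not overlap, which held for 84.3% of all genes. Transcript lengths were not used, so RNA levels are compared between groups and not between genes.

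**Figure D1:**
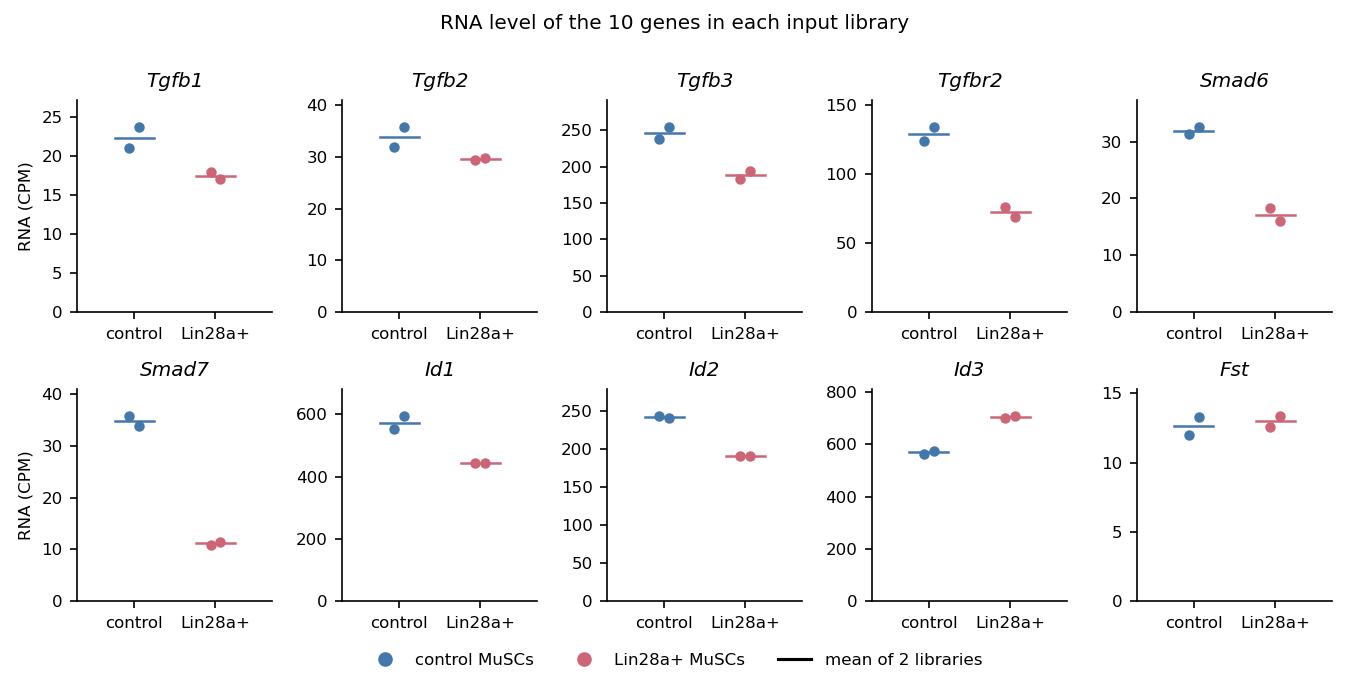
RNA level in CPM (vertical axes, each from 0) of the 10 genes in the 2 control and 2 Lin28a+ input libraries; points are libraries and lines are means. Smad7, Smad6 and Tgfbr2 are farthest apart, Id3 is the gene whose Lin28a+ libraries lie above the control libraries, and those of Fst overlap.

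The inhibitory Smads fell, Smad7 furthest of the 10 genes. Smad7 (ENSMUSG00000025880, chr18:75367365-75395935) blocks both TGF-beta and BMP receptors and was at 35.7 and 33.8 CPM in the control libraries against 10.8 and 11.5 CPM in the Lin28a+ libraries. The groups were well apart, with a log2 fold change of -1.65 (SE 0.08, adjusted p = 3.59e-05), a 3.13-fold lower level, and 3.55% of the genes tested had a lower log2 fold change. Smad6 (ENSMUSG00000036867, chr9:63953076-64022085) mainly blocks BMP receptors and was at 31.3 and 32.5 CPM in the control libraries against 18.3 and 16.0 CPM in the Lin28a+ libraries. Its log2 fold change was -0.91 (SE 0.07, adjusted p = 0.000215), again with no overlap.

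Tgfbr2 (ENSMUSG00000032440, chr9:116087695-116175363), the receptor that binds TGF-beta ligands first, was at 124 and 134 CPM in the control libraries against 76.4 and 68.7 CPM in the Lin28a+ libraries. Both Lin28a+ libraries were far below both control libraries, at a log2 fold change of -0.84 (SE 0.06, adjusted p = 0.000116).

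The ligands had smaller differences. Tgfb3 (ENSMUSG00000021253, chr12:86056743-86079041) was at 238 and 254 CPM in the control libraries against 184 and 194 CPM in the Lin28a+ libraries, and its log2 fold change was -0.40 (SE 0.04, adjusted p = 0.000382). Its libraries did not overlap. Tgfb1 (ENSMUSG00000002603, chr7:25687002-25705077) was at 21.0 and 23.6 CPM in the control libraries against 17.9 and 17.0 CPM in the Lin28a+ libraries. The libraries were separate but close, with a log2 fold change of -0.37 (SE 0.08, adjusted p = 0.0175). The call of Tgfb1 was lost with DESeq2 (adjusted p = 0.391), without control replicate 2 (0.158) and without the second Lin28a+ library (0.100). Tgfb2 (ENSMUSG00000039239, chr1:186622787-186709697) was at 32.0 and 35.7 CPM in the control libraries against 29.5 and 29.7 CPM in the Lin28a+ libraries. Its Lin28a+ libraries were also the lower ones, but its log2 fold change of -0.21 (SE 0.06, adjusted p = 0.0924) did not pass.

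The Id genes, dominant-negative partners of bHLH factors, did not move alike. Id1 (ENSMUSG00000042745, chr2:152736251-152737410) was at 554 and 594 CPM in the control libraries against 445 CPM in both Lin28a+ libraries, a log2 fold change of -0.38 (SE 0.03, adjusted p = 0.000197). Id2 (ENSMUSG00000020644, chr12:25093799-25096092) was at 242 and 241 CPM in the control libraries against 190.1 and 191 CPM in the Lin28a+ libraries, a log2 fold change of -0.35 (SE 0.03, adjusted p = 0.000202). Both fell by a similar amount, with replicates much closer to each other than the groups were. Id3 (ENSMUSG00000007872, chr4:136143822-136145392) was at 563 and 575 CPM in the control libraries against 699.5 and 707 CPM in the Lin28a+ libraries. It was the 1 gene of the 10 that rose, with a log2 fold change of 0.29 (SE 0.02, adjusted p = 0.000151), a 1.22-fold higher level.

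Fst (ENSMUSG00000021765, chr13:114452262-114458989) was at 11.96 and 13.3 CPM in the control libraries against 12.6 and 13.3 CPM in the Lin28a+ libraries. Its libraries overlapped and its log2 fold change was 0.02 (95% interval -0.18 to 0.22, adjusted p = 0.924).

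The same groups were compared in m6A-RIP, in which RNA carrying N6-methyladenosine is enriched with an antibody and sequenced. The deposited table holds whole-number counts in rows that name a transcript but no position, and a gene may have several rows, here 28 rows for the 10 genes. With the rows of a gene summed, 6 genes fell (Smad6, Tgfbr2, Smad7, Tgfb3, Id1 and Id2), 2 rose (Id3 and Tgfb1), and Tgfb2 and Fst did not pass, by the same test over 9416 genes. Over all of these, 66.3% were called, 32.5% higher and 33.8% lower. The median log2 fold change of the 10 genes was -0.29, against 0.01 over all genes.

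The receptor, Smad6, Tgfb3, Id1 and Id2 fell in m6A-RIP as they did in RNA. Smad6 was at 73.0 and 66.9 CPM in the control libraries against 38.7 and 38.1 CPM in the Lin28a+ libraries (log2 fold change -0.87, SE 0.07, adjusted p = 2.24e-07). Tgfbr2 was at 65.6 and 61.2 CPM in the control libraries against 33.4 and 36.7 CPM in the Lin28a+ libraries (log2 fold change -0.85, SE 0.07, adjusted p = 5.07e-07). In both genes the m6A-RIP and RNA differences were nearly the same size and no library overlapped. Tgfb3 had a log2 fold change of -0.42 (SE 0.05), Id1 of -0.37 (SE 0.04), Id2 of -0.20 (SE 0.04) and Id3 of 0.44 (SE 0.04), and all 4 passed. Id3 was at 637 and 623 CPM in the control libraries against 848 and 859 CPM in the Lin28a+ libraries, so the gene that rose in RNA rose here too. Fst, with 87 to 153 counts in a library, was at 4.64 and 3.98 CPM in the control libraries against 3.78 and 3.97 CPM in the Lin28a+ libraries, a log2 fold change of -0.16 (SE 0.21, adjusted p = 0.511).

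Smad7 and Tgfb1 differed between the assays. Smad7 was at 184 and 188 CPM in the control libraries against 107 and 112 CPM in the Lin28a+ libraries, a log2 fold change of -0.76 (SE 0.04, adjusted p = 1.08e-08), less than its fall in RNA. Tgfb1 was at 90.8 and 86.9 CPM in the control libraries against 103 and 96.4 CPM in the Lin28a+ libraries, a log2 fold change of 0.17 (SE 0.05, adjusted p = 0.0122), whereas its RNA was lower. Tgfb2 was at 149 and 143 CPM in the control libraries against 144 and 149 CPM in the Lin28a+ libraries, with overlapping libraries and a log2 fold change of 0.00 (95% interval -0.09 to 0.09, adjusted p = 0.993). The Tgfb1 call was lost when libraries were scaled by total counts (log2 fold change 0.06, adjusted p = 0.293), without control replicate 2 (adjusted p = 0.0654) and without the first Lin28a+ library (0.102). Scaling by total counts moved the median over all genes from 0.01 to -0.09 and the calls from 3060 higher and 3179 lower to 2395 higher and 3766 lower, and relative to that shift the Tgfb1 value differed little from its value with TMM factors.

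**Figure D2:**
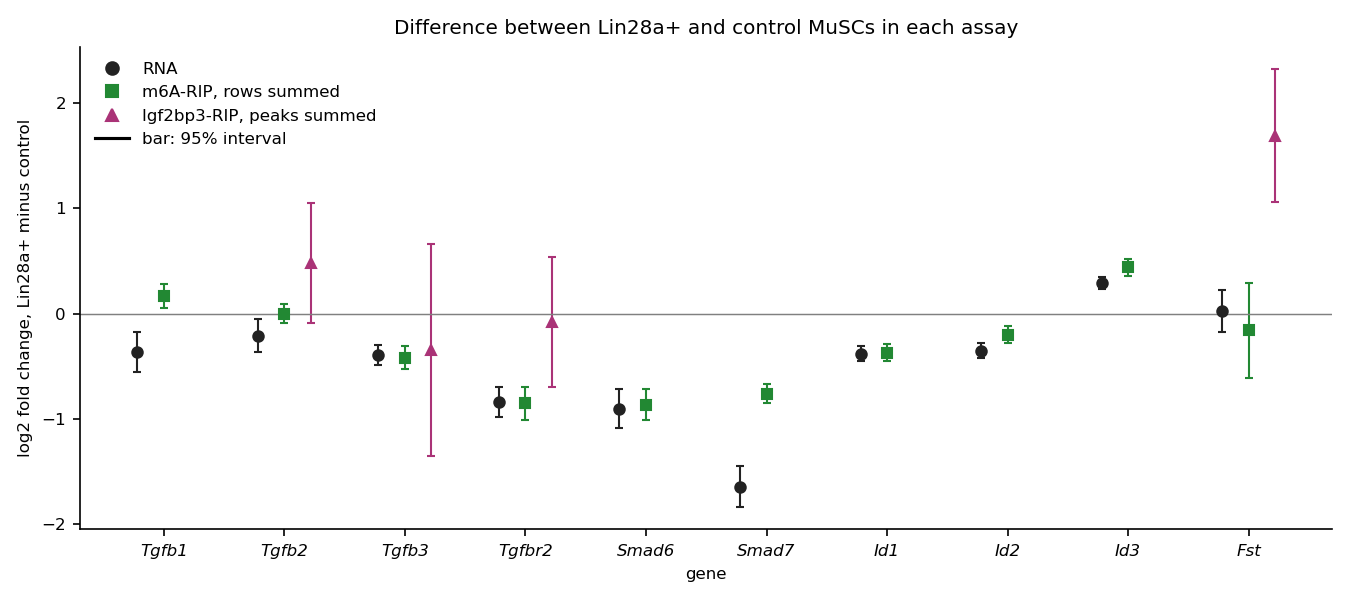
Log2 fold change, Lin28a+ minus control (vertical axis), of the 10 genes in RNA (circles), m6A-RIP with rows summed (squares) and, for the 4 genes with peaks, Igf2bp3-RIP with peaks summed (triangles); bars are 95% intervals. Smad7 and Tgfb1 lie higher in m6A-RIP than in RNA, and Fst stands at 1.69 in Igf2bp3-RIP (edgeR adjusted p = 0.0915, not passing) with RNA and m6A-RIP near 0.

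Whether m6A-RIP moved differently from RNA was tested directly, as an interaction of cells and assay in 1 model over 7943 genes present in both tables. Of the 10 genes, 2 passed, both with m6A-RIP higher relative to RNA in Lin28a+ MuSCs. Over all genes, 7.14% passed, and 3.05% passed in that direction. For Smad7 the log2 difference between the assays' changes was 0.87 (SE 0.11, adjusted p = 0.00063), and under 15 alternatives it stayed between 0.76 and 0.94 with adjusted p at most 0.0106. For Tgfb1 it was 0.52 (SE 0.12, adjusted p = 0.0297). The Tgfb1 call was lost with DESeq2 (adjusted p = 0.0794), with total counts (0.0645), without control replicate 2 of the m6A-RIP (0.0592) and without any 1 of the 4 input libraries (0.0578 to 0.208). The other 8 genes had log2 differences between -0.20 (Fst, 95% interval -0.65 to 0.24) and 0.19 (Tgfb2, -0.01 to 0.39), and Id3 (0.13, adjusted p = 0.0844) and Id2 (0.14, adjusted p = 0.125) were the nearest to passing.

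Single rows of the m6A-RIP table showed where these differences lay. Of the 28 rows, 6 were called higher and 17 lower, against 30.0% and 31.8% of all 18881 rows (61.8% in either direction). The 5 rows of Smad7 split into a group that fell and a group that did not. Rows 1, 2 and 3, numbered in the order of the table, had log2 fold changes of -1.37, -1.42 and -1.59 (SE 0.08 to 0.11), close to the RNA. Row 4 was at 15.2 and 17.3 CPM in the control libraries against 21.7 and 21.9 CPM in the Lin28a+ libraries, a log2 fold change of 0.43 (SE 0.11, adjusted p = 0.00437), and without control replicate 1 its adjusted p was 0.0622. Row 5 was at 38.4 and 40.1 CPM in the control libraries against 43.1 and 44.4 CPM in the Lin28a+ libraries (log2 fold change 0.16, SE 0.07, adjusted p = 0.0616, and 0.0490 without control replicate 2). With total counts, row 4 was at 0.27 (adjusted p = 0.0497) and row 5 at 0.0035 (adjusted p = 0.969), with the median over all rows at -0.15. Their shares of the gene's counts were 8.40% and 21.2% in the first control library and 19.8% and 39.3% in the first Lin28a+ library. Rows 3, 4 and 5 name the same transcript, so the split was not between transcripts as the table names them.

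The 2 rows of Tgfb1 went opposite ways on 1 named transcript. Row 1 was at 39.9 and 37.0 CPM in the control libraries against 67.7 and 57.7 CPM in the Lin28a+ libraries (log2 fold change 0.70, SE 0.08, adjusted p = 2.88e-06). Row 2 was at 49.5 and 48.1 CPM in the control libraries against 37.7 and 40.3 CPM in the Lin28a+ libraries (log2 fold change -0.32, SE 0.07, adjusted p = 0.00102), close to the gene's RNA. Neither row overlapped between the groups. The table holds no positions, so whether rows overlap or where they lie in a transcript is not known.

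A test of the rows of a gene against each other (edgeR's diffSpliceDGE, added after these rows had been seen) was run over the 4900 genes with at least 2 rows, of which 19.2% had unequal rows. Of the 9 genes here with more than 1 row, 3 passed: Smad7 (adjusted p = 2.82e-11), Tgfb1 (3.35e-06) and Id3 (0.0269), whose 2 rows both rose, by 0.28 and 0.52 on the log2 scale. Tgfb2 (5 rows, adjusted p = 0.0616) did not pass, although its rows 3 and 4 were called higher (log2 fold changes 0.38 and 0.62) and its largest row, with 59.1% to 64.8% of the gene's counts, had a log2 fold change of -0.02. The 3 rows of Tgfb3 (-0.40 to -0.33), the 3 of Tgfbr2 (-0.99 to -0.76), the 3 of Smad6 (-0.95 to -0.68), the 2 of Id1 (-0.41 and -0.30) and the 2 of Id2 (-0.17 and -0.14) were all called lower. Calls were lost for both rows of Id2 (adjusted p = 0.0769 and 0.0903) and row 1 of Tgfb3 (0.141) without control replicate 2, for row 2 of Tgfb3 (0.0755) and row 3 of Tgfb2 (0.123) without control replicate 1, for row 4 of Tgfb2 without control replicate 2 (0.0623) or the first Lin28a+ library (0.108), and for row 2 of Id2 (0.0878), row 1 of Tgfb3 (0.0755) and row 3 of Tgfb2 (0.382) without the second Lin28a+ library. With total counts, rows 3 and 4 of Tgfb2 (0.203 and 0.0637) and row 1 of Id3 (0.0576) did not pass, and the largest row of Tgfb2 was called lower (log2 fold change -0.18, adjusted p = 0.0103), with the median over all rows at -0.15. Row 3 of Tgfb2 did not pass with DESeq2 either (0.0838).

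**Figure D3:**
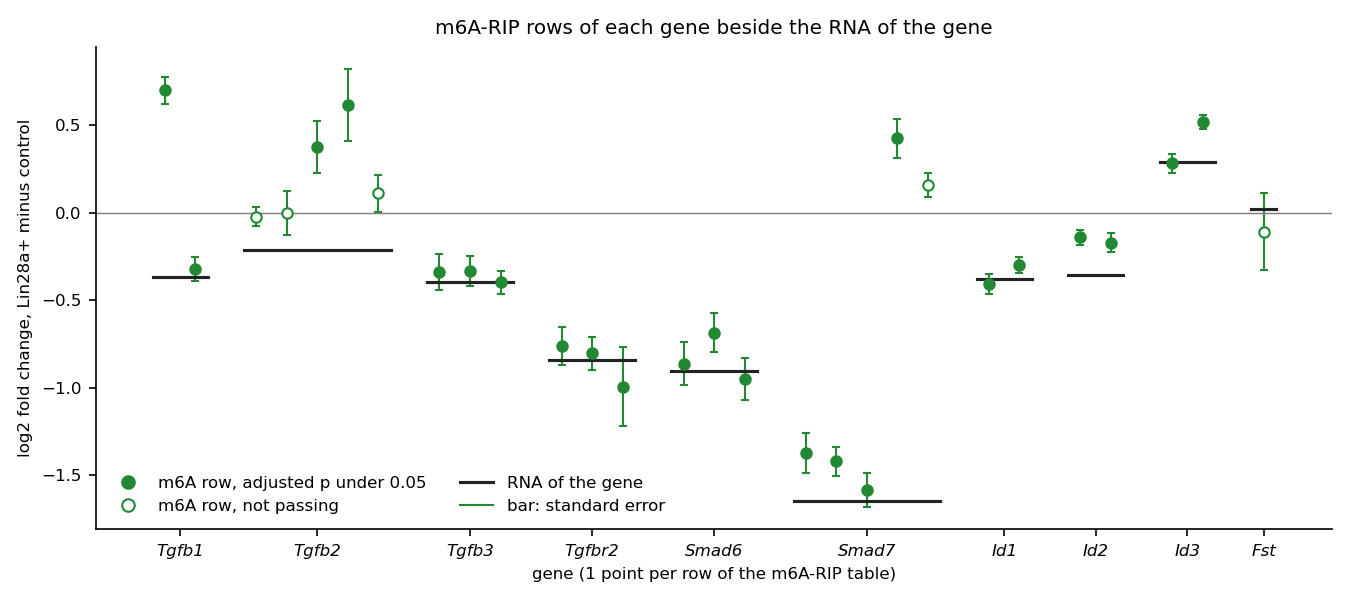
Log2 fold change, Lin28a+ minus control (vertical axis), of each of the 28 m6A-RIP rows, grouped by gene; bars are standard errors, filled points have an adjusted p under 0.05 and black lines give the RNA of the gene. Smad7 has 3 rows near its RNA and 2 above 0, and the rows of Tgfb1 lie at 0.70 and -0.32.

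Igf2bp3 is an RNA-binding protein that reads m6A and is known to stabilise bound transcripts. In Igf2bp3-RIP, RNA bound to it was enriched with an antibody, and the authors deposited counts per peak. The 4 genes with peaks were Tgfb2 (7 peaks), Fst (4), Tgfbr2 (2) and Tgfb3 (1). No peak of Tgfb1, Smad6, Smad7 or the Id genes was in the table, though all of them have m6A-RIP rows. Of the genes tested in RNA, 32.8% have an Igf2bp3-RIP peak and 25.3% a Lin28a-RIP peak. Peak positions are as deposited, in tables that name no build, while the submitters' processing notes list mm10 and GRCh38. They were read as mm10 (GRCm38) because the gene identifiers are mouse, and 80.6% of the Igf2bp3-RIP peaks and 86.1% of the Lin28a-RIP peaks overlapped the RefSeq span (GRCm38.p6) of the gene named beside them. Distances to gene ends rest on that reading.

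At all 4 peaks of Fst, both Lin28a+ libraries had a higher Igf2bp3-RIP level than both control libraries, while the RNA of Fst overlapped between the groups. By edgeR, none of the 14 peaks passed at an adjusted p under 0.05, as against 0.123% of all 19465 peaks, and 4 passed at an unadjusted p under 0.05, all higher and all in Fst, as against 2.03% of all peaks. DESeq2 called 3 of the 14, the Fst peaks 1 to 3, and 1.35% of all peaks (263, against 24 by edgeR). With the peaks of a gene summed, none of the 4 genes passed (Fst 1.69, adjusted p = 0.0915), as against 0.287% of all 4527 genes. The summed libraries of Fst and Tgfb2 did not overlap between the groups, but the share of all genes for which this held was not counted. In 9 of the 14 peaks both Lin28a+ libraries were above both control libraries, which held for 15.0% of all peaks. These 9 lay in Fst and Tgfb2 alone, and peaks of a gene in the same libraries are not independent.

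Fst peak 1 (chr13:114453253-114453454) was at 7.91 and 5.33 CPM in the control libraries against 26.8 and 19.0 CPM in the Lin28a+ libraries (log2 fold change 1.81, SE 0.36, unadjusted p = 0.00179, edgeR adjusted p = 0.228). Peak 2 (chr13:114453586-114453884) was at 2.42 and 3.65 CPM in the control libraries against 10.3 and 10.6 CPM in the Lin28a+ libraries (1.74, SE 0.33, adjusted p = 0.218). Peak 3 (chr13:114455762-114456034) was at 7.69 and 7.22 CPM in the control libraries against 21.9 and 19.0 CPM in the Lin28a+ libraries (1.46, SE 0.29, adjusted p = 0.228). In all 3 peaks each Lin28a+ library was more than 2 times each control library. Peak 4 (chr13:114458599-114458983) lay 6 bases from the end of the gene with the higher coordinate, and was at 7.58 and 2.15 CPM in the control libraries against 24.4 and 10.7 CPM in the Lin28a+ libraries (1.91, SE 0.67, unadjusted p = 0.0268, adjusted p = 0.805). Its libraries did not overlap but varied most within each group, and with a library left out its log2 fold change ran from 1.205 (without Lin28a+ replicate 1) and 1.22 (without control replicate 2) to 2.40 (without Lin28a+ replicate 2, adjusted p = 0.00681) and 3.01 (without control replicate 1, adjusted p = 0.0137). Peak 1 also passed without Lin28a+ replicate 2 (2.03, adjusted p = 0.0187). Of all 19465 peaks, between 71 and 121 had a larger log2 fold change than a given peak of Fst, up to 0.622%.

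Tgfb2 had its strongest peak, peak 4 (chr1:186624704-186625785), at 41.9 and 48.9 CPM in the control libraries against 70.3 and 54.4 CPM in the Lin28a+ libraries (log2 fold change 0.46, SE 0.29, unadjusted p = 0.16). The groups did not overlap, but the Lin28a+ libraries were further from each other than the lower of them was from either control library. The other 6 peaks had log2 fold changes from 0.14 to 0.85, none with an unadjusted p under 0.05, and peaks 6 and 7 overlapped between the groups. These values turned on single libraries: without Lin28a+ replicate 1, peaks 1 to 5 were at 0.35, 0.29, 0.29, 0.26 and 0.24, and without Lin28a+ replicate 2 at 1.24, 0.78, 1.05, 0.63 and 0.77. RefSeq places Tgfb2 on the minus strand, and its peaks 1 to 4 began 215, 798, 1451 and 1917 bases from the low-coordinate end of the gene, the side where the transcript ends, whereas peak 7 ended 4486 bases from the side where it starts. Tgfbr2, also on the minus strand, had peaks that began 1031 and 1729 bases from its low-coordinate end, with log2 fold changes of -0.02 (SE 0.32) and -0.09 (SE 0.33) and overlapping libraries. The peak of Tgfb3 (chr12:86057758-86058076) was at 24.0 and 17.3 CPM in the control libraries against 23.5 and 9.76 CPM in the Lin28a+ libraries, which overlapped (-0.32, SE 0.46).

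**Figure D4:**
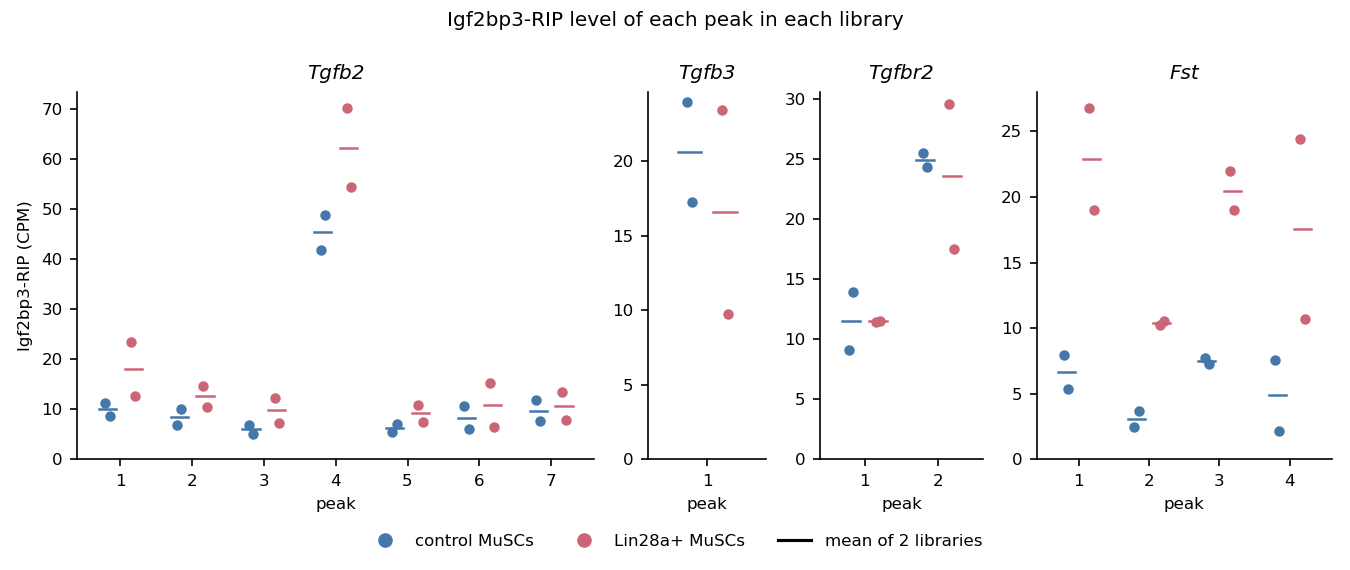
Igf2bp3-RIP level in CPM (vertical axes, from 0) of the 14 peaks in the 2 control and 2 Lin28a+ libraries, with the peaks of a gene numbered by position; points are libraries and lines are means. In Fst each peak has both Lin28a+ libraries above both control libraries, and peaks 6 and 7 of Tgfb2 and those of Tgfb3 and Tgfbr2 overlap.

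Igf2bp3-RIP was also tested relative to RNA, with the peaks of a gene summed, over 3922 genes in both tables. None of the 4 genes passed with edgeR, as against 1.05% of all genes, and 1 (Fst) had an unadjusted p under 0.05, in the direction of more Igf2bp3-RIP, as against 12.5% of all genes. Fst had a log2 difference of 1.44 (SE 0.26, 95% interval 0.81 to 2.06, unadjusted p = 0.00103, adjusted p = 0.0605), Tgfbr2 of 0.52 (adjusted p = 0.213), Tgfb2 of 0.45 (0.283) and Tgfb3 of -0.19 (0.847). Fst lay just outside the threshold, and inside it with DESeq2 (1.43, adjusted p = 0.0401, with 1.76% of all genes called), with total counts (1.68, 0.0393), with TMM factors over each whole table (1.66, 0.0382), and without any 1 of 3 Igf2bp3-RIP libraries (control replicate 1, 0.0450, Lin28a+ replicate 1, 0.0341, and Lin28a+ replicate 2, 0.0455). Without any 1 input library its adjusted p was 0.322 to 0.335. Total counts moved the median over all genes from 0.03 to 0.26, and their calls from 14 higher and 27 lower to 200 higher and 34 lower.

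Lin28a-RIP was made from Lin28a+ MuSCs alone, so it gives levels with no comparison. Tgfb2 had 3 peaks and Fst 1, and each overlapped an Igf2bp3-RIP peak of the same gene. The Tgfb2 peak at chr1:186625027-186625730 had 997 and 887 counts and lay within Igf2bp3-RIP peak 4 over 704 bases. The Tgfb2 peaks at chr1:186649878-186650085 (262 and 221 counts) and chr1:186704935-186705213 (307 and 326 counts) overlapped its peaks 6 and 7 by 208 and 200 bases, the former at the same coordinates. The Fst peak at chr13:114458616-114458964 had 272 and 249 counts and lay within Igf2bp3-RIP peak 4 of Fst over 349 bases. The 2 replicates were close to each other at all 4 peaks. The first Tgfb2 peak had a mean CPM above 60.1% of all 21616 Lin28a-RIP peaks, and the Fst peak above 10.6%. The other Tgfb2 peaks were above 9.02% and 16.2%, in order of position. These ranks take no account of peak width.

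The wider pathway was counted from a list of 90 genes that includes these 10, of which 67 were tested in RNA, with 14 higher, 41 lower and 12 not passing, against 28.1% higher and 28.7% lower over all genes tested. DESeq2 called 35 of the list, against 55 by edgeR, and 26.9% of all genes (3039, against 6434). The median log2 fold change was -0.37, the same with the 10 genes left out (57 tested, 13 higher and 34 lower), against 0.01 over all genes. The list, like the 10 genes, was chosen with earlier results of these data known, so its counts and median are no independent test. By role, of 10 inhibitors inside the cell none rose and 8 fell, while of 7 antagonists outside the cell 4 rose and 1 fell, with a median of 0.25. Of 11 receptors and co-receptors 1 rose and 8 fell, of 9 ligands 1 rose and 6 fell, and of 15 target genes 4 rose and 10 fell. Of 9 genes for latency and activation 3 rose and 5 fell, and of 6 receptor-regulated and common Smads 1 rose and 3 fell. In m6A-RIP 59 genes of the list were tested, with 17 higher and 33 lower, against 32.5% and 33.8% of all genes. They include Nodal (higher) and Bmp8a (lower), which had m6A-RIP rows but no RNA value.

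Among the genes that rose most, Nog, which encodes the BMP antagonist noggin, was at 19.5 and 23.3 CPM in the control libraries against 63.0 and 74.9 CPM in the Lin28a+ libraries (log2 fold change 1.66, SE 0.12, adjusted p = 0.000127). Ltbp4, which anchors latent TGF-beta in the matrix, was at 4.42 and 4.204 CPM in the control libraries against 36.4 and 37.5 CPM in the Lin28a+ libraries (3.08, SE 0.08, adjusted p = 6.19e-06). Both were far apart between the groups. Ltbp2 (3 and 4 counts in control, 17 and 15 in Lin28a+ MuSCs, a ratio of 5.40 with an exact 95% counting interval of 2.34 to 14.5), the BMP co-receptor Rgma (1.93), the targets Snai1 (1.65) and Hey1 (1.46), Smad9 (0.92), the activin antagonist Fstl3 (0.67), the activin subunit Inhba (0.61) and Fstl1 (0.37) also rose, with log2 fold changes in parentheses except for Ltbp2.

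Among those that fell most, the BMP-type ligand Gdf6 had 133 and 161 counts in control and 3 and 1 in Lin28a+ MuSCs, a ratio of 62.3 with an exact 95% counting interval of 24.1 to 230. The co-receptor Eng (-2.51), the targets Ccn2 (-2.02), Cdkn2b (-1.73), Snai2 (-1.34) and Id4 (-1.31), Gdf15 (-1.44) and the BMP receptors Bmpr2 (-1.20) and Bmpr1b (-1.18) fell as well, together with Smad7, with log2 fold changes in parentheses. Relative to RNA, 3 of 57 genes of the list passed in m6A-RIP, where 7.14% of all genes did, so the list did not stand out by its count. They were Smad7, Tgfb1 and the BMP receptor Bmpr1a (log2 difference 0.48, SE 0.09, adjusted p = 0.0104), and all were higher, as were 3.05% of all genes.

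**Figure D5:**
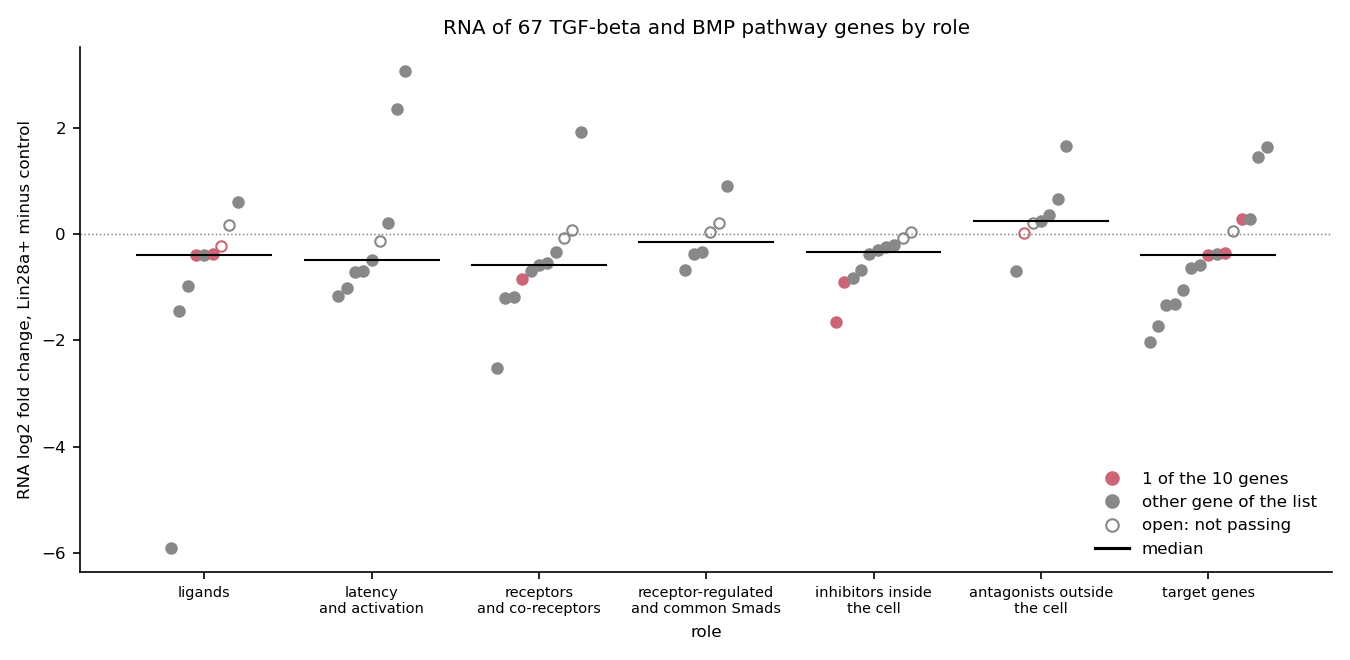
RNA log2 fold change, Lin28a+ minus control (vertical axis), of the 67 tested pathway genes by role; red points are the 10 genes, open points did not pass, and black lines are medians. Inhibitors inside the cell lie at or below about 0, with Smad7 and Smad6 lowest, and antagonists outside the cell lie mostly above 0.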

How the data were processed

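The 14 libraries held 2 of each group and assay. The authors deposited 1 estimated count per gene and input library, often with decimals, and these were rounded before testing. Of the input genes, 47.3% had values that are whole multiples of 1/k with k up to 20 (within 0.02), and how the values were made is not given in the sources used here. Per row or peak of the RIP tables, the authors deposited unscaled counts in whole numbers. The submitters' processing notes name FastQC, HISAT2 2.0.4, MACS2 1.4.3 and DESeq2 1.42.0, and the builds GRCh38 and mm10. The counting program and whether peaks were called on pooled replicates are not given. Columns were assigned by name, with these exceptions. The Lin28a+ columns of the input table are headed with the names of m6A-RIP replicates 1 and 2, against the table's own title, and were read as Lin28a+ input because the labels of the Lin28a+ input libraries name that table. Both Lin28a+ columns of the m6A-RIP table carry the same name. Each pair was assigned to its group without a number.

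The software was R 4.3.3 with edgeR 4.0.16 (quasi-likelihood test, TMM factors, filterByExpr, Benjamini-Hochberg adjustment, calls at an adjusted p under 0.05), limma 3.58.1 and DESeq2 1.42.0 as an alternative. For RIP relative to RNA, 1 model held both assays, with library sizes and TMM factors over the genes of both tables and an interaction term. The assays share 1 dispersion per gene in it, although their spread differed (a biological coefficient of variation of 2.48% in RNA, 5.74% in m6A-RIP and 25.4% in Igf2bp3-RIP per gene). The edgeR methods of the main tests were run on simulated data with known changes, whereas DESeq2 and the replicate block were not. The members and the lists were chosen with earlier results of these data known. The wider list leaves out 1 gene that is not reported here. From it, the genes named are the up to 10 higher and 10 lower ones with the largest RNA log2 fold change past the threshold and without overlap between groups, up to 3 each way relative to RNA, and the 3 genes most like 2 of the members. All 10 members passed the filter on low counts. Alternatives were other scalings, filters and tools, a replicate block, and each library left out. The exact 95% counting intervals were computed on rounded estimated counts as if these were read counts. They take in counting error alone, because PCR copies of 1 molecule could not be told from independent molecules.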

Additional observations from a re-analysis of the deposited data

How the results depend on the processing

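Of the 10 genes, 8 were called in RNA by edgeR and 7 by DESeq2. With input values multiplied to whole numbers, 9 were called (Tgfb2, edgeR adjusted p = 0.0167, chosen after seeing the data). That setting also raised the calls over all genes from 6434 to 7417. Of the wider list, 55 were called in RNA by edgeR and 35 by DESeq2. In m6A-RIP, 8 of the 10 genes, 50 of the wider list and 23 of the member rows were called. With a library left out, none of these edgeR numbers rose, and the calls over all genes or rows fell as well. Relative to RNA, 2 genes were called in m6A-RIP, 1 with total counts or DESeq2 (Smad7) and 1 to 2 with a library left out. Over all genes, DESeq2 called 3039 in RNA, against 6434 by edgeR, and total counts called 1049 (204 higher, 845 lower) in m6A-RIP relative to RNA, against 567 (242 and 325), with a median of -0.14. Of all m6A-RIP rows, total counts called 3842 higher and 7638 lower, with a median of -0.15.

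Of the 14 Igf2bp3-RIP peaks none was called, 3 by DESeq2 (263 of all peaks, against 24) and 0 to 2 with a library left out (1 without control replicate 1 and 2 without Lin28a+ replicate 2). At a minimum of 10 counts in every library none of all peaks was called. Igf2bp3-RIP relative to RNA had none, 1 (Fst) with total counts, DESeq2 or whole-table TMM factors, and 0 to 1 with a library left out. With a replicate block, 5 peaks (those of Fst and peak 1 of Tgfb2) and, relative to RNA, 1 gene (Fst, adjusted p = 0.00229) were called, and 1988 of all peaks and 1300 of all genes relative to RNA, against 24 and 41. Replicate numbers are shared by the labels only. Over all peaks, the difference between replicates correlated between the groups at 0.703, with 2 pairs. No paired analysis was possible for RNA and m6A-RIP because in the input table the numbers of the Lin28a+ columns belong to headings of another assay, while in the m6A-RIP table both Lin28a+ headings are identical.

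Reversals were limited to values that were not called. With at least 10 counts in every library, Fst RNA was -0.00055 and Tgfb2 m6A-RIP -0.00095. With total counts, Tgfb2 m6A-RIP was -0.101, its row 5 -0.042, Smad6 m6A-RIP relative to RNA -0.0919, Tgfbr2 peak 1 0.012 and Tgfb3 Igf2bp3-RIP relative to RNA 0.0608 (0.0267 with whole-table TMM). Row 2 of Tgfb2 was 0.00494 with DESeq2 size factors and 0.00583 with DESeq2, and Id1 m6A-RIP relative to RNA was 0.00897 and 0.0089, and 0.000815 with whole-number input.

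With a library left out, further signs turned. Fst RNA ranged from -0.0343 to 0.0849 and its m6A-RIP row from -0.209 to 0.0195, Tgfb2 m6A-RIP from -0.0274 to 0.0308 and its row 2 from -0.137 to 0.164. Relative to RNA, the m6A-RIP of Tgfb3 ranged from -0.0952 to 0.0234, of Tgfbr2 from -0.106 to 0.0525, of Smad6 from -0.0729 to 0.127 and of Id1 from -0.036 to 0.0267. In Igf2bp3-RIP, Tgfb2 peak 6 ranged from -0.345 to 0.907 and peak 7 from -0.28 to 0.48, the Tgfb3 peak from -1.07 to 0.192 (relative to RNA -0.802 to 0.315), Tgfbr2 peak 1 from -0.277 to 0.356 and its peak 2 from -0.506 to 0.249.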

Other observations

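Over 7408 genes in both the input and the m6A-RIP, the genes whose pattern over the 8 libraries was nearest to that of Id3 (Euclidean distance of log2(CPM + 1) centred per gene) were Zfp553, Ado and Ticam1, at distances of 0.059, 0.061 and 0.065, against a median distance of 0.693. Ado, for example, had log2 fold changes of 0.28 in RNA and 0.40 in m6A-RIP. The genes nearest to Smad7 were Tmem158, Bves and Mrc2, at distances of 0.236, 0.238 and 0.241, against a median of 1.77. Bves had log2 fold changes of -1.70 in RNA and -0.96 in m6A-RIP, and Mrc2 of -1.87 and -0.78.

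Of the 67 pathway genes tested in RNA, 83.6% had m6A-RIP rows, 44.8% an Igf2bp3-RIP peak and 29.9% a Lin28a-RIP peak, against 65.5%, 32.8% and 25.3% of all genes tested. Of the 10 genes of the report these tables held 10, 4 and 2.

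The myogenic markers, used to check the cells, differed between the groups themselves, with 3 of 12 higher and 6 lower in Lin28a+ MuSCs, against 28.1% and 28.7% of all genes tested. Besides Myog, Pax7 and Cdh15 were higher (log2 fold changes 0.36 and 0.77), and the lower ones were Megf10 (-2.21), Vcam1 (-1.93), Myf5 (-1.21), Sdc4 (-1.10), Chrna1 (-0.92) and Des (-0.53). Myog, a differentiation factor whose partners the Id proteins bind, was at 752 and 778 CPM in the control libraries against 2773 and 2818 CPM in the Lin28a+ libraries (log2 fold change 1.86, edgeR adjusted p = 1.29e-06). Myod1 was at 4567 and 4735 CPM in the control libraries against 4730 and 4743 CPM in the Lin28a+ libraries (log2 fold change 0.01, adjusted p = 0.618). These markers were named here after their values had been seen.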
